A study of Mus musculus with 12 samples.

Results

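Krill oil was compared with water in mice that were not put under chronic stress. Of the 55385 genes in the deposited table, 21393 were compared. Their FPKM averaged 0.1 or more over all 12 libraries of the series. The comparison holds 6 of the 12 mice: 3 of the group C_W (water, mice W1, W64 and W70) and 3 of the group C_O (krill oil, mice O15, O30 and O72), which are written here as C_W1, C_W64, C_W70, C_O15, C_O30 and C_O72. The other 6 mice went through chronic unpredictable mild stress (CUMS), in which a changing series of mild stressors is given over weeks, and received water (MS_W) or krill oil (MS_O). All 12 were male wild-type C57/BL6J mice, bought at 8 weeks of age. C_O mice were given krill oil by gavage at 200 mg/kg each day for 5 weeks, and C_W mice an equal volume of water over the same weeks. Neither group was exposed to CUMS, and both are called unstressed here. All groups took the behavioural tests of the study, which included forced swimming. The 3 mice sequenced were a random choice from each group. The control was water and not another oil, so that krill oil and the intake of an oil as such cannot be told apart in this comparison. Each brain was taken after perfusion with saline and gave 1 library of poly(A) RNA.

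Krill oil is a marine oil in which much of the eicosapentaenoic and docosahexaenoic acid, the long omega-3 fatty acids, is carried by phospholipids, and it also contains the carotenoid astaxanthin. Docosahexaenoic acid is a main acyl chain of neuronal membranes, and the brain takes it up from blood with the help of transporters, fatty acid binding proteins and acyl-CoA synthetases, which attach it to coenzyme A before it is built into phospholipids. Omega-3 fatty acids are ligands of the nuclear receptors PPAR and RXR, can lower the processing of the sterol regulator SREBP in liver, and compete with arachidonic acid for the enzymes that make prostaglandins and leukotrienes, while arachidonic acid is also the source of endocannabinoids. Genes of these steps were therefore read as lists of their own, next to lists for signalling, for immune cells and for the regions and cell types that a whole brain holds.

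Values are FPKM, fragments scaled to transcript length and to the mapped fragments of the library, and a gene without an estimate is listed at 0.0001. Differences are C_O minus C_W of mean log2(FPKM + 1), a scale that understates the change of genes with low FPKM, with a 95% interval and an unadjusted p from limma fitted to all 4 groups. A gene is called a DEG, a differentially expressed gene by the thresholds of the study, where that p is under 0.05 and the group means of FPKM differ over 2-fold. The study selected its DEGs with Ballgown, so that only the thresholds are shared and not the test. The limma p-values rest on the spread between mice within groups, each mouse being 1 brain and 1 library. That spread was pooled over the 4 groups and moderated across genes, so the stressed mice enter it.

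One of the C_O mice stood apart from the other 5 unstressed mice. Over the tested genes, the correlation (Pearson's r) of log2(FPKM + 1) lay between 0.979 and 0.985 for every pair of the C_W mice, C_O15 and C_O30, between 0.92 and 0.933 for C_O72 with these 5, and 0.97 for C_O72 with MS_W95, a stressed mouse given water. The median absolute difference between a pair of libraries, over genes that averaged 1 FPKM or more, was 0.116 to 0.135 on the log2 scale between C_W mice. It was 0.117 to 0.153 between C_O15 or C_O30 and a C_W mouse, and 0.327 to 0.379 between C_O72 and any of the other 5. The smallest library was also that of C_O72, with 50912906 estimated counts. C_O30 had 56057766 and C_O15 had 70097375, against 69768244 to 75678721 in C_W. In the read numbers that the study lists, each C_O library was below each C_W library. Depth thus went with the group, and its part in the differences was not tested. Because C_O72 stood apart, values without it are given beside many of the results below.

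The marker genes of brain regions showed where C_O72 differed. Slc6a5, the glycine transporter of hindbrain and spinal neurons, was at 0.0297, 0.0001 and 0.0538 FPKM in C_W1, C_W64 and C_W70 and at 0.0295, 0.0166 and 47.2 in C_O15, C_O30 and C_O72. Cbln1, which cerebellar granule cells secrete, was at 5.2, 5.04 and 3.95 in C_W and 0.854, 3.83 and 66.4 in C_O. Growth hormone, Gh, a product of the pituitary, was at 0.0001, 0.206 and 47.3 in C_O and at most 0.353 in C_W. In the opposite direction, Slc17a7, the vesicular glutamate transporter of cortical projection neurons, was at 270, 290 and 254 in C_W and 179, 314 and 28.1 in C_O, and Camk2a, a kinase of forebrain synapses, at 315, 296 and 327 in C_W and 355, 329 and 9.13 in C_O. In each of these genes C_O72 was the mouse farthest from the rest. The mean of the 13 tested hindbrain and spinal cord markers in C_O72 was 2.43 above the C_W mean on the log2 scale and that of the 11 cerebellar markers 2.78 above it, while the 12 cortical markers stood at -2.11. For C_O15 and C_O30 the same 3 scores lay between -0.18 and 0.24. In a whole-brain library fewer cells of a type and less RNA per cell cannot be told apart, and the part of tissue content in the differences described here was not tested.

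**Figure D1:**
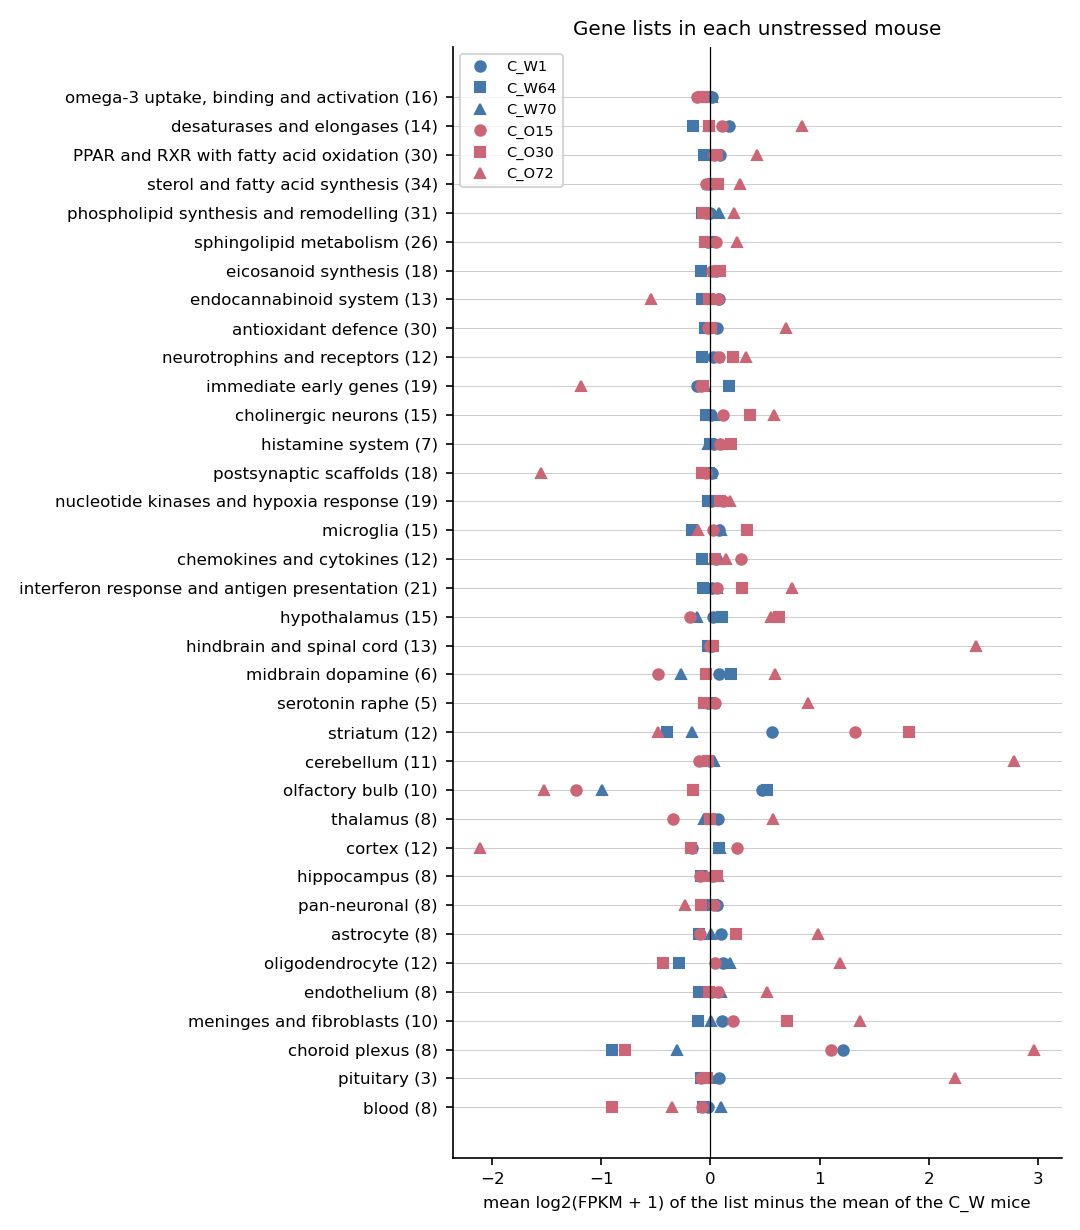
Mean log2(FPKM + 1) of each gene list in each unstressed mouse, as the difference from the mean of the 3 C_W mice; the number of tested genes stands behind each list name. C_W mice are blue and C_O mice red, with 1 symbol per mouse. The C_O72 triangle is at 2.43 for hindbrain and spinal cord and at -2.11 for cortex, while C_O15 and C_O30 lie near the C_W mice in most lists and above all 3 in the striatum list.

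Regions and cell types other than these varied from mouse to mouse in both groups. All 12 striatal markers had a positive difference (as did 50.4% of all tested genes), and with the 3 C_O mice their median was 0.91. Without C_O72 it was 1.58 and 4 of the 12 had p under 0.05 (as did 2.44% of all tested genes in that fit). Ppp1r1b, which encodes the dopamine-regulated phosphatase inhibitor DARPP-32 of striatal projection neurons, was at 59.9, 33.1 and 30 FPKM in C_W and 87.9, 141 and 41 in C_O. Penk, the enkephalin precursor, was at 79.1, 51.7 and 38.8 in C_W and 90.1, 181 and 82.8 in C_O. C_O15 and C_O30 were thus above all C_W mice for both genes, and C_O72 was within the C_W range for Ppp1r1b only. Among genes that averaged 1 FPKM or more, 9 were over 2-fold above the highest C_W mouse in C_O15 and in C_O30 but not in C_O72, and striatal genes were among them. Drd2, the D2 dopamine receptor, was at 4.35, 0.602 and 1.87 in C_W and 9.41, 12.7 and 3.5 in C_O, Rgs9 at 3.9, 1.65 and 2.23 in C_W and 7.99, 11.4 and 1.03 in C_O, and Pde10a, the phosphodiesterase of striatal projection neurons, at 3.99, 1.85 and 1.97 in C_W and 13.9, 13.4 and 2.92 in C_O. These 3 were chosen after their values were seen. Choroid plexus markers followed no group: Ttr, the thyroxine carrier that choroid plexus epithelium secretes, was at 827, 1.88 and 59.8 in C_W and 804, 2.51 and 4770 in C_O. The olfactory bulb list was low in C_W70, C_O15 and C_O72, with Cdhr1, a cadherin of mitral and tufted cells, at 17.7, 24.5 and 1.75 in C_W and 0.498, 12.3 and 0.499 in C_O. Haemoglobin genes were lowest in C_O30, where Hbb-bs was at 18.7 FPKM, against 54.8 to 72.1 in C_W. General neuronal markers were present in all 6 mice, with Snap25 at 413, 421 and 410 in C_W and 418, 325 and 367 in C_O.

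By the thresholds of the study, with p from limma, 377 genes (1.76% of those tested) were DEGs, 185 higher (0.865%) and 192 lower (0.897%) in C_O. No gene had an adjusted p under 0.05 in limma with Benjamini-Hochberg adjustment, where the smallest was 0.908. An unadjusted p under 0.05 was found for 760 genes (3.55%). On the estimated counts, edgeR's quasi-likelihood test also put 0 genes past that threshold. DESeq2 put 54 past it, 38 of them higher in C_O, and 35 of these were among the DEGs. Centring each library on its median moved the split to 229 higher and 136 lower DEGs. Of the DEGs, 246 had a mean FPKM below 1 in the 6 libraries, and 43.2% were protein coding, against 61.2% of the tested genes. Exon bases shared with another gene on the same strand, whose reads the estimation has to divide, were found for 15.9% of DEGs and 9.41% of the tested genes.

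The list of DEGs depended on the mice. Without C_O72 there were 251 DEGs, of which 135 were among the 377. Leaving out C_O15 gave 888 and leaving out C_O30 589, so that the count was highest where C_O72 made up 1 of 2 C_O mice. With a C_W mouse left out there were between 286 and 410. In 25 genes the call was lost only without C_O72, 16 of them higher and 9 lower. Among the more abundant were Dlg2, the scaffold PSD-93, at 17.4, 19.1 and 19.5 FPKM in C_W and 10.3, 9.67 and 4.16 in C_O, and Igf2, a growth factor of meninges and choroid plexus, at 7.44, 2.87 and 3.15 in C_W and 6.51, 12.1 and 29.7 in C_O. S100a11, a calcium-binding protein, was at 3.48, 3.35 and 5.45 in C_W and 6.39, 9.24 and 11.6 in C_O, and Slc6a20a, an imino acid transporter, at 3.15, 2.86 and 3.39 in C_W and 3.71, 6.6 and 10.5 in C_O. In Dlg2, S100a11 and Slc6a20a the groups did not overlap and C_O72 was the most extreme mouse. Calls lost only without C_O30 were B4gat1, Xrcc3 and Gm2991, and none was lost only without C_O15.

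**Figure D2:**
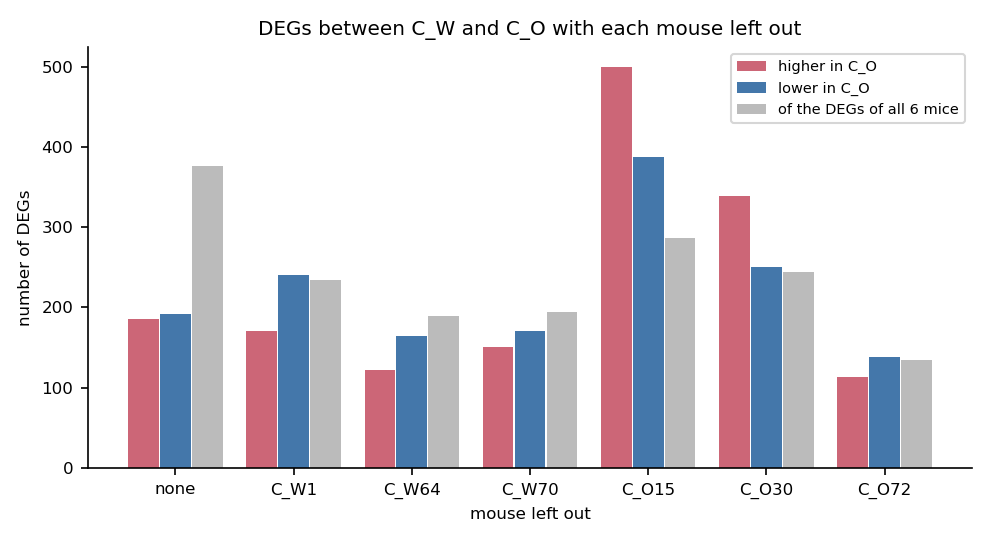
Number of DEGs between C_W and C_O with no mouse or 1 mouse left out (horizontal axis), higher in C_O (red), lower in C_O (blue), and the number that were also among the 377 DEGs of all 6 mice (grey). The count was 888 without C_O15 and 251 without C_O72, and between 135 and 287 of the 377 were called again.

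Single C_O mice differed from the C_W mice to unequal extents. Among the 13463 genes that averaged 1 FPKM or more, C_O15 was over 2-fold above the highest C_W mouse in 32 and over 2-fold below the lowest in 97. For C_O30 these were 102 and 134 genes, and for C_O72 831 and 1105. All 3 C_O mice were over 2-fold above in 6 genes, Ak4, Gsk3b, Hrh1, Nat8f1, Gm23472 and Irx2, and over 2-fold below in 3, Nek7, Gm14438 and Trbj2-2. For Irx2 the 3 C_W mice were listed at the floor and C_O15 and C_O30 were at 0.0431 and 0.0363 FPKM, against 7.67 in C_O72. The precision set how small a difference could have been seen. In 81.5% of these genes the 95% interval lay within a 2-fold difference of FPKM + 1 in either direction. At low FPKM this leaves room for a larger change of FPKM itself. The median half-width was 0.388 on the log2 scale.

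The calls that held with every mouse left out in turn were 74 DEGs, and in 67 of them, 28 higher and 39 lower, the C_W and C_O mice did not overlap. Over all tested genes the groups did not overlap in 9.42%, with C_O higher in 4.08% and lower in 5.34%. Of the 377 DEGs, 266 had no overlap, so separate groups were common among DEGs before the stability rule. A mean FPKM of at least 1 was reached by 20 of the 67, 12 higher and 8 lower, and 13 of these were protein coding. They were chosen by their stability in these 6 mice, so that the values below describe them.

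Ak4, at chr4:101419277-101466995 (mm10, plus strand, ENSMUSG00000028527), encodes a mitochondrial adenylate kinase that balances adenine nucleotides. Its FPKM was 1.33, 1.67 and 2.02 in C_W1, C_W64 and C_W70 and 9.3, 10.4 and 12.2 in C_O15, C_O30 and C_O72, a 6.34-fold ratio of the means and a difference of 2.12 on the log2 scale (95% interval 1.16 to 3.08, limma p of 0.000576). Every C_O mouse was far above every C_W mouse, and C_O15 and C_O30 gave a difference of 2.02 without C_O72. Hrh1, at chr6:114397936-114483296 (plus strand, ENSMUSG00000053004), encodes the H1 histamine receptor and was near the limit for testing of 0.1 FPKM in C_W, at 0.118, 0.229 and 0.144 FPKM, and at 1.08, 3.13 and 2.98 in C_O. The difference of Hrh1 was 1.48 (interval 0.79 to 2.17, p of 0.000719). Syndig1l, a relative of the synapse protein SynDIG1 that is high in striatal neurons, was at 4.56, 1.61 and 1.25 in C_W and 9.06, 11.3 and 8.8 in C_O, with a difference of 1.74 (interval 0.92 to 2.55, p of 0.000727). It was also 1 of the 12 striatal markers, and the only one of these that was a DEG with all 6 mice.

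Gsk3b, the kinase glycogen synthase kinase 3 beta, at chr16:38089001-38246084 (plus strand, ENSMUSG00000022812), was at 2.92, 3.06 and 3.21 FPKM in C_W and 17.8, 9.32 and 8.81 in C_O. The 3 C_W mice lay close to each other, all 3 C_O mice were above them, and the difference was 1.61 (interval 0.70 to 2.52, p of 0.00271). Nat8f1, an N-acetyltransferase-like gene, was at 0.93, 0.968 and 1.01 in C_W and 5.85, 2.73 and 8.36 in C_O, a difference of 1.66 (interval 0.73 to 2.58, p of 0.00244). Slc10a4, which encodes a transporter-like protein of cholinergic synaptic vesicles, was at 0.218, 0.0679 and 0.404 in C_W and 0.731, 1.38 and 6.14 in C_O, and C_O72 had the highest value. Its difference was 1.34 with all 6 mice and 0.73 without C_O72. Rprd1b, a regulator of RNA polymerase II, was at 1.03, 1.11 and 1.05 in C_W and 4.64, 1.15 and 5.57 in C_O: in C_O30 it was just above the C_W mice, and in C_O15 and C_O72 over 4-fold above them. The remaining genes of the higher set were Gm37397, Gm23472, Gm27544, Gm14414 and Gm9755, which carry predicted-gene names, and of which Gm37397 shares exon bases with Pyurf and Gm27544 with Rmst.

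Of the 8 genes lower in C_O, Shank2, a scaffold of the postsynaptic density at chr7:144001928-144424494 (plus strand, ENSMUSG00000037541), had the smallest p. Its FPKM was 14.9, 15 and 15.5 in C_W and 7.83, 5.08 and 5.25 in C_O, a 2.5-fold ratio of C_W to C_O and a difference of -1.22 (interval -1.73 to -0.70, p of 0.000351). Nek7, at chr1:138482875-138620141 (minus strand, ENSMUSG00000026393), a mitotic kinase that is also a partner of the NLRP3 inflammasome, was at 5.8, 5.57 and 6.58 in C_W and 1.13, 0.874 and 1.56 in C_O, a 5.03-fold ratio of C_W to C_O. No C_O mouse came within 3-fold of any C_W mouse for Nek7, and the difference was -1.68 (interval -2.52 to -0.85, p of 0.00106). Npnt, which encodes the matrix protein nephronectin, was at 6.42, 6.88 and 7.73 in C_W and 2.99, 3.24 and 1.4 in C_O, a difference of -1.22 (interval -1.76 to -0.68, p of 0.000478). Ppp1r3g, a glycogen-targeting subunit of protein phosphatase 1, was at 3.13, 2.56 and 2.58 in C_W and 0.595, 0.286 and 1.55 in C_O, with a difference of -1.11 that was -1.39 without C_O72. Gemin4, a component of the SMN complex that shares exon bases with Glod4, was at 2.72, 3.33 and 3.79 in C_W, 2.56 in C_O15, 0.000623 in C_O30 and at the floor in C_O72. The lower set also held Gm21586, Gm14438 and Gm3851. In Gm3851 the values were 8.92, 6.75 and 8.6 in C_W and 3.64, 1.82 and 1.94 in C_O.

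**Figure D3:**
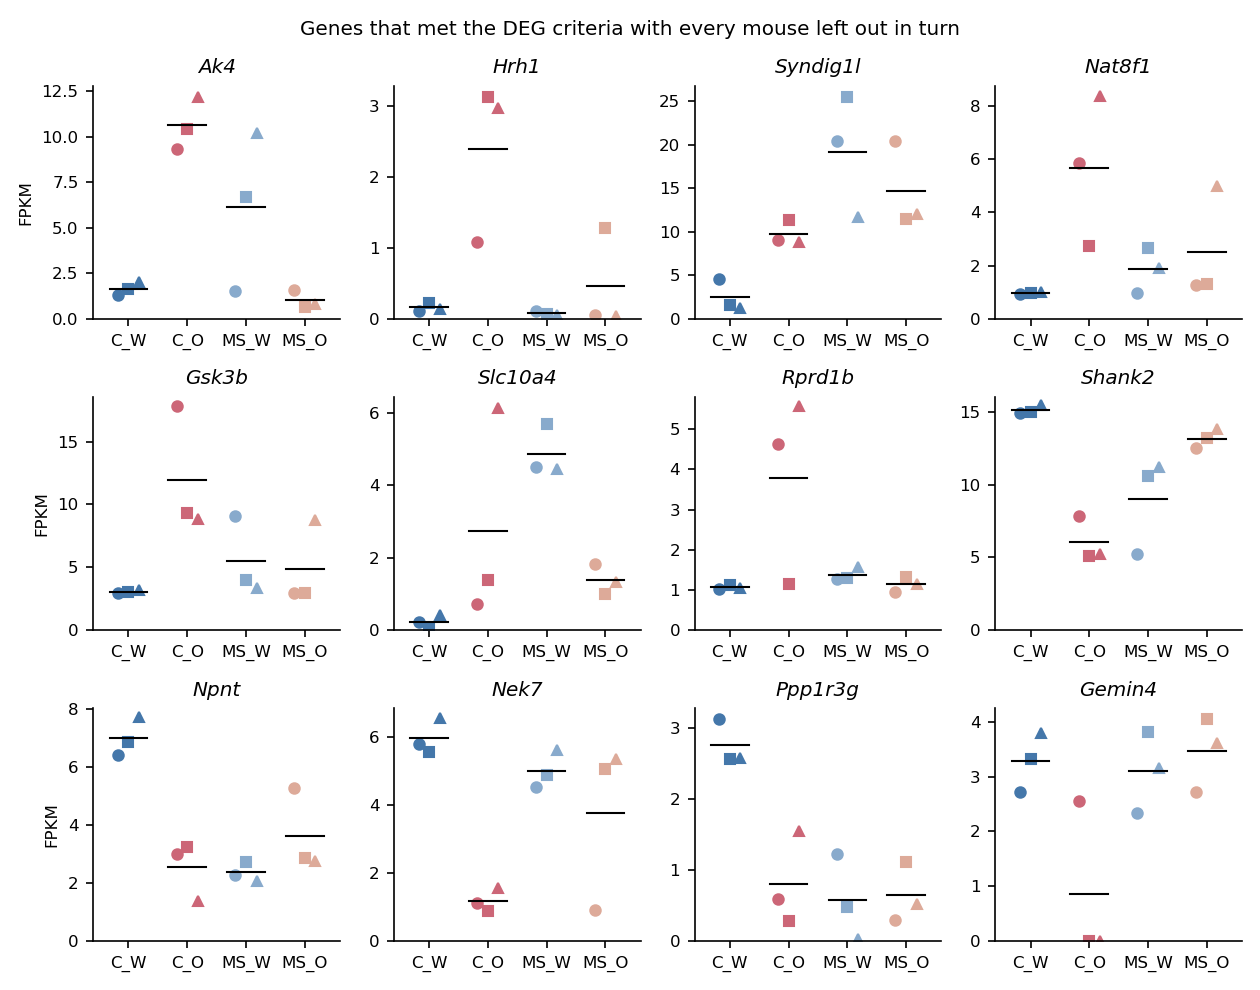
FPKM of 12 named genes that met the DEG criteria with every unstressed mouse left out in turn, in each mouse of the 4 groups (circle, square and triangle in the order of the mouse numbers); the line is the group mean and every axis starts at 0. The C_W and C_O mice do not overlap in any panel, as the choice of genes requires, and the stressed mice span both levels for Ak4 and Gsk3b.

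Several genes took 1 of 2 levels in the 6 unstressed mice, with no value between them, and the level did not always follow the group. Scd2, the main stearoyl-CoA desaturase of the brain, was at 269, 42.6 and 47.4 FPKM in C_W and 244, 230 and 468 in C_O: C_W1 lay with the C_O mice and not with C_W64 and C_W70. B3galt1, a galactosyltransferase of glycolipid and glycoprotein chains, was at 0.86, 3.74 and 4.07 in C_W and 0.852, 0.914 and 0.728 in C_O, and Napepld, which releases anandamide and related acylethanolamides from membrane phospholipids, at 4.5, 1.51 and 1.87 in C_W and 4.75, 4.73 and 4.93 in C_O. In both, C_W1 again lay with the C_O mice. When C_W1 was left out, B3galt1 had an adjusted p of 0.00836 and Napepld one of 0.0290 in limma, together with Gm17114 and Mir3084-2, and with all mice their adjusted p was 0.908. Eif4h, a translation initiation factor, was at 75.1, 69.3 and 68.7 in C_W, 29.4 in both C_O15 and C_O30, and 72.9 in C_O72. It had an adjusted limma p of 0.00154 without C_O72 and no DEG call with it. Rprd1b without C_O30 and Gemin4 without C_O15 passed in the same way, at adjusted limma p of 0.00946 and 0.0143. The genes Gm28051, Gm49320, Gm22489 and Gm6654 each passed with 1 mouse left out, and Gm6654 was listed at the floor in 4 of the 6 mice. In the 6 stressed mice Scd2 was at 296, 298 and 69.1 in MS_W and 42.6, 59.4 and 49.5 in MS_O, B3galt1 at 0.863, 1.13 and 0.79 in MS_W and 4.33, 3.95 and 4.15 in MS_O, and Eif4h at 70.2, 68.6 and 77.3 in MS_W and 72, 73 and 71 in MS_O. The same 2 levels were thus seen for Scd2 and B3galt1 under CUMS, and for Eif4h the higher one in all 6.

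Genes of lipid handling and antioxidant defence, 212 of which were tested, showed few differences between C_W and C_O. An unadjusted p under 0.05 was found for 10 (4.72%, against 3.55% of all tested genes), 6 higher (1.51% of all tested genes) and 4 lower (2.04%) in C_O, and Scd2 and Ptgds were the 2 DEGs. Their median difference was 0.107 with all mice and -0.00738 without C_O72, beside a median of 0.0017 over all tested genes. Without C_O72, 3 had p under 0.05 (2.44% of all tested genes) and none was a DEG. The 95% interval lay within a 2-fold difference of FPKM + 1 in either direction for 167 of them, and for 193 without C_O72. For genes with low FPKM this leaves room for a larger change of FPKM itself. In single mice, 7 of the 212 were over 0.5 from the C_W mean on the log2 scale in C_O15 and 11 in C_O30, against 106 in C_O72.

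In the uptake and activation of omega-3 fatty acids, 2 of 16 tested genes had p under 0.05, and both were lower in C_O (as were 2.04% of all tested genes). Acsl4, the acyl-CoA synthetase that prefers long polyunsaturated fatty acids, was at 10, 11.2 and 11.4 FPKM in C_W and 4.51, 10.7 and 3.5 in C_O, so that C_O15 and C_O72 were low and C_O30 was within the C_W range. The difference of Acsl4 was -0.84 (interval -1.50 to -0.19), and -0.56 without C_O72, where limma gave a p of 0.0717. Lrp8, the apolipoprotein E receptor 2, was at 4.72, 5.55 and 4.52 in C_W and 4.81, 1.88 and 1.06 in C_O, where C_O15 was within the C_W range. Its difference was -0.86 (interval -1.61 to -0.12), and -0.53 without C_O72, where limma gave a p of 0.119, so that neither gene had p under 0.05 without this mouse. Of the 3 fatty acid binding proteins tested, none had p under 0.05. Fabp3 was at 108, 107 and 106 in C_W and 100, 103 and 74.1 in C_O, and Fabp5 at 22.7, 19.1 and 23 in C_W and 21, 22.1 and 33.1 in C_O, with intervals of -0.54 to 0.09 and -0.17 to 0.57. Fabp7 had a wider interval, -1.74 to 0.75, and was at 9.98, 16.4 and 7.61 in C_W and 3.58, 14.6 and 7.23 in C_O. Acsl3 had a difference of -0.11 (interval -0.36 to 0.15). The 4 transporters of the list had differences above 0 (as did 50.4% of all tested genes) and none had p under 0.05.

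Of the 14 tested desaturases and elongases of fatty acids, Scd2 alone had p under 0.05. Its difference was 1.85 with all mice and 1.52 without C_O72, where limma gave a p of 0.092 and the DEG call was lost. Fads1, the delta-5 desaturase, was at 50.9, 45.5 and 50 in C_W and 48.4, 43.4 and 57.2 in C_O, with an interval of -0.23 to 0.26, and Fads2, the delta-6 desaturase, at 52.4, 43.1 and 47.8 in C_W and 48.1, 53.6 and 67.8 in C_O, with an interval of -0.09 to 0.54. The list median was 0.25 with all mice and -0.07 without C_O72. Of 30 genes for PPAR, RXR and fatty acid oxidation, Pparg, the nuclear receptor PPAR gamma, had p under 0.05, with 1.76, 1.84 and 1.39 FPKM in C_W and 1.33, 1 and 0.229 in C_O. Its difference of -0.57 was -0.29 without C_O72, where limma gave a p of 0.0906. All 8 genes of mitochondrial beta-oxidation had differences above 0 (as did 50.4% of all tested genes), with a median of 0.25, none of them at p under 0.05. The median of the whole list of 30 was 0.20, and 0.02 without C_O72. Its score relative to the C_W mean was 0.03 in C_O15, 0.06 in C_O30 and 0.42 in C_O72, with C_W mice from -0.06 to 0.09. Acadl, the long-chain acyl-CoA dehydrogenase, was at 14.6, 15.4 and 34.6 in C_O, where C_O72 was high and the other pair lay within the C_W range of 11.9 to 16.5.

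Among 34 genes of sterol and fatty acid synthesis, Apoe, the main apolipoprotein of brain, was the only one with p under 0.05. It was at 220, 216 and 302 FPKM in C_W and 319, 405 and 438 in C_O, without overlap, a difference of 0.66 (interval 0.17 to 1.15, p of 0.0136) with all mice and 0.56 without C_O72. Every one of the 17 sterol synthesis enzymes had an interval within a 2-fold difference of FPKM + 1. Hmgcs1, an early enzyme of that pathway, was at 40.8, 46.3 and 44.9 in C_W and 39.4, 46 and 48.9 in C_O. Cyp46a1, the neuronal cholesterol 24-hydroxylase, was at 71.7, 65 and 65.4 in C_W and 76, 83.4 and 17.8 in C_O, with C_O72 alone low. None of the 31 genes of phospholipid synthesis and remodelling and none of the 26 of sphingolipid metabolism had p under 0.05. Pla2g7, which hydrolyses platelet-activating factor, was at 35.8, 39.3 and 107 in C_O, against 45.4, 35.2 and 39.3 in C_W. Smpd1, the acid sphingomyelinase, had a narrow interval, at 34.1, 32.3 and 32.4 in C_W and 32.7, 33.3 and 35.4 in C_O (interval -0.13 to 0.21). S1pr1, a receptor for sphingosine 1-phosphate, had a difference of 0.12 (interval -0.16 to 0.40). Sgpp2, a sphingosine 1-phosphate phosphatase, was at 6.99, 6.09 and 6.95 in C_W and 9.35, 4.99 and 27.1 in C_O, where the high value of C_O72 recurred in MS_W95, at 25.1. Gcnt1, which branches O-glycans, was at 1.42, 1.5 and 0.378 in C_W and 0.237, 0.797 and 0.227 in C_O, and Plekha2, a phosphoinositide-binding adaptor, at 7.28, 7.65 and 4.13 in C_W and 4.69, 4.28 and 2.11 in C_O. The groups overlapped in both, and limma gave a p of 0.212 for Gcnt1 and of 0.175 for Plekha2.

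Eicosanoid and endocannabinoid genes held 4 of the 10 with p under 0.05, Napepld (described above) among them. Ptgds, the prostaglandin D synthase that meninges and choroid plexus secrete, was at 442, 327 and 334 FPKM in C_W and 385, 746 and 1590 in C_O, a difference of 1.08 (interval 0.07 to 2.09) and of 0.56 without C_O72 (limma p of 0.0383 and 0.165). C_O15 was within the C_W range. Ltc4s, the leukotriene C4 synthase, was at 2.36, 1.39 and 2.39 in C_W and 2.91, 2.41 and 4.77 in C_O, without overlap, and its difference was 0.50 with C_O72 and 0.28 without (limma p of 0.0365 and 0.152). Abhd6, a hydrolase of 2-arachidonoylglycerol, was at 22.5, 20.9 and 22.2 in C_W and 16.7, 15.9 and 13 in C_O, a difference of -0.50 (interval -0.93 to -0.08, p of 0.0253), and all 3 C_O mice were below all C_W mice. Without C_O72 its difference was -0.40 and limma gave a p of 0.0855. Mgll, the main hydrolase of that endocannabinoid, was at 52.6, 53.5 and 58 in C_W and 42.5, 38 and 10.8 in C_O: the groups did not overlap, C_O72 was lowest, and the interval was -2.45 to 0.38. Abhd12 and Gde1 had intervals of -0.23 to 0.34 and -0.43 to 0.18.

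In antioxidant defence 26 of 30 tested genes had a difference above 0 (50.4% of all tested genes), with a median of 0.19. Without C_O72 these were 16 of 30 with a median of 0.02. The list score was -0.02 in C_O15, 0.01 in C_O30 and 0.69 in C_O72, relative to the C_W mean on the log2 scale. Gpx1, the cytosolic glutathione peroxidase, was the gene with p under 0.05, at 36.7, 43 and 30.2 FPKM in C_W and 44.2, 49.2 and 56.1 in C_O, without overlap (difference 0.44, interval 0.06 to 0.83). Without C_O72 its difference was 0.35 and limma gave a p of 0.0904. Gpx4, the peroxidase of phospholipid hydroperoxides, was at 146, 122 and 129 in C_W and 126, 128 and 211 in C_O, with C_O15 and C_O30 within the C_W range.

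**Figure D4:**
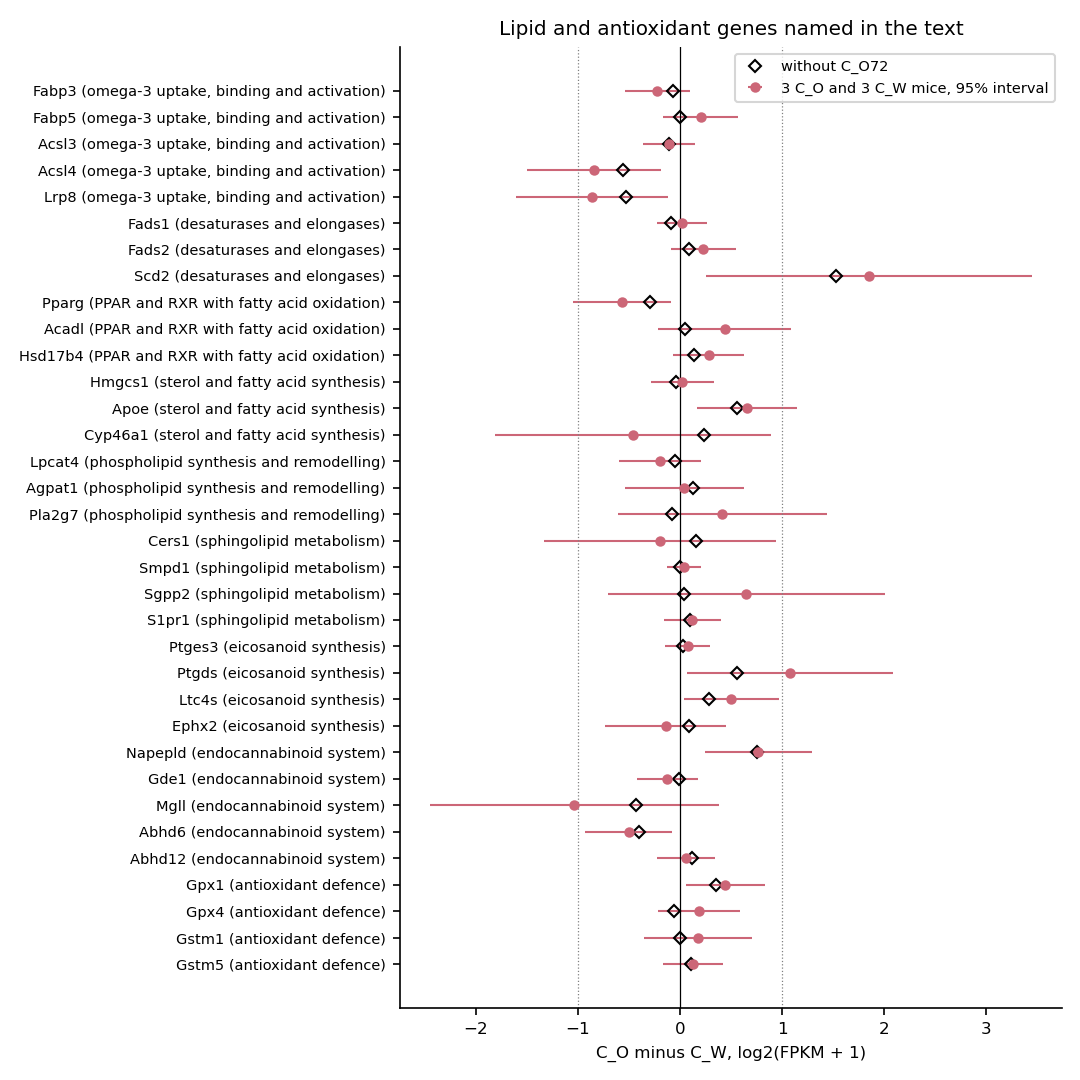
Difference of C_O and C_W on the log2(FPKM + 1) scale for the lipid and antioxidant genes named in the text, with its 95% interval from limma (red), and the difference without C_O72 (open diamonds). Dotted lines mark a 2-fold difference of FPKM + 1. Scd2 has the widest interval, 0.25 to 3.45, and most diamonds lie nearer to 0 than the points, as for Ptgds (1.08 and 0.56).

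Signalling genes were read in 6 lists. Of 15 genes of cholinergic neurons, 3 were DEGs, all higher in C_O (as were 0.865% of all tested genes), and 2 were without C_O72 (1.17% of all tested genes in either direction). In 7 every C_O mouse was above every C_W mouse (as in 4.08% of all tested genes). The list median was 0.33, and 0.25 without C_O72. Chat, choline acetyltransferase, was at 0.22, 0.0604 and 0.13 FPKM in C_W and 0.503, 0.79 and 3.26 in C_O, a difference of 0.99 (interval 0.28 to 1.71) and of 0.53 without C_O72 (limma p of 0.0113 and 0.0124). Ecel1, a peptidase found in cholinergic and other neurons, was at 0.635, 0.369 and 0.849 in C_W and 1.04, 3.79 and 9.34 in C_O. Its difference was 1.54 (interval 0.36 to 2.71), and 0.96 without C_O72, where limma gave a p of 0.063 and the DEG call was lost. In both genes the groups did not overlap and C_O72 was the highest. Of the muscarinic receptors, Chrm1 was at 27.1, 27.9 and 25.8 in C_W and 30.4, 29.4 and 0.436 in C_O and Chrm4 at 14, 15.5 and 12.8 in C_W and 15.6, 17.5 and 0.654 in C_O, with C_O72 alone far below the rest. Cholinergic neurons lie in the basal forebrain, the striatum and the motor nuclei of the brainstem, and striatal markers were higher in C_O15 and C_O30 and hindbrain markers in C_O72; their part in the cholinergic difference was not tested.

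In the neurotrophin list of 12, Ntrk2, the receptor of BDNF, was at 31.8, 29.8 and 29.1 FPKM in C_W and 33.1, 30.8 and 26.5 in C_O (interval -0.25 to 0.23), and Vgf, a secreted neuropeptide precursor, at 65.5, 46 and 62.9 in C_W and 73.5, 55.9 and 34.9 in C_O. Hrh1 was the DEG among 7 histamine genes; Hrh3, the inhibitory autoreceptor, was at 27.3, 32.8 and 26.1 in C_W and 28.2, 36.7 and 9.11 in C_O. Postsynaptic scaffolds had a median of -0.48 over 18 genes, 17 of them at or below 0, with Shank2 and Dlg2 as DEGs. Of all tested genes 50.4% were above 0, and 0.897% were DEGs lower in C_O. Without C_O72 the median was 0.02 and 10 of 18 were above 0, while Shank2 (-1.14) and Dlg2 (-0.84) were still lower (limma p of 0.00178 and 0.0169). Dlg4, the scaffold PSD-95, was at 57.8, 51.9 and 51.9 in C_W and 55.5, 54.2 and 20.2 in C_O. The immediate early genes that neurons switch on with activity had a like course: their median over 19 genes was -0.47, and -0.04 without C_O72. Egr1 was at 83.3, 82.3 and 87.2 in C_W and 95.6, 75.7 and 13.1 in C_O, and Arc, a synaptic effector, at 64.5, 98.4 and 85.8 in C_W and 101, 47.5 and 12.3 in C_O. Nr4a3, a nuclear receptor of this class, was the DEG at 1.67, 4.86 and 6.27 in C_W and 1.49, 1.05 and 1.92 in C_O, with C_W1 near the C_O mice. Among nucleotide kinases and hypoxia genes, Ak4 was the only one of 19 with p under 0.05. Ak1, the cytosolic adenylate kinase, was at 49.9, 45 and 41.8 in C_W and 43.7, 38.8 and 42.9 in C_O, and the hypoxia targets Ldha and Bnip3 had differences of -0.30 and 0.02.

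Immune genes differed in single members. Of 15 microglial genes, Cx3cr1, the fractalkine receptor, was the DEG, at 1.12, 1.02 and 1.07 FPKM in C_W and 1.2, 10.2 and 4.69 in C_O, so that C_O15 was close to the C_W mice. Its difference of 1.32 was 1.26 without C_O72, where limma gave a p of 0.0514, and the DEG call was lost there, without C_O30 and in a fit of the 6 unstressed libraries alone. The more abundant microglial genes C1qa and Ctss had intervals of -0.26 to 0.62 and -0.29 to 0.38. The ligand of Cx3cr1, fractalkine (Cx3cl1), was at 25.4, 24.4 and 22.7 in C_W and 233, 27 and 43.3 in C_O, where C_O15 was over 5-fold above every other unstressed mouse; the DEG call was kept in only 2 of the 6 fits with a mouse left out. Csf1, a growth factor of microglia, was at 3.2, 2.93 and 3.47 in C_W and 4.12, 3.44 and 5.31 in C_O (difference 0.32 with C_O72 and 0.19 without, limma p of 0.0479 and 0.181). The cytokines Il1b, Il6 and Tnf and the chemokines Ccl2 and Ccl4 were below the expression limit of 0.1 FPKM and were not tested. Genes of the interferon response and antigen presentation had a difference above 0 in 19 of 21 (50.4% of all tested genes), with a median of 0.37. Without C_O72 the median was 0.16 with 17 of 21 above 0, beside 9621 of all 21393 tested genes. The list score relative to the C_W mean was 0.060 in C_O15, within the C_W range of -0.072 to 0.062. It was 0.285 in C_O30 and 0.750 in C_O72. Cd74, the class II invariant chain, was at 2.53, 0.912 and 1.64 in C_W and 1.65, 4.99 and 10.9 in C_O, and Bst2, an interferon-induced tetherin, at 3.29, 2.5 and 3.6 in C_W and 4.35, 5.66 and 9.65 in C_O. Bst2 was higher in every C_O mouse, and neither gene had p under 0.05 without C_O72, where limma gave 0.124 for Cd74 and 0.117 for Bst2. B2m, the light chain of class I molecules, was at 90.1, 73.2 and 85.6 in C_W and 91.3, 86.3 and 111 in C_O (interval -0.15 to 0.56).

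The markers of meninges and fibroblasts were the list with the largest share of DEGs among the 36 examined: 6 of 10, all higher in C_O, beside 0.865% of all tested genes. All 10 had a difference above 0 (as did 50.4% of all tested genes), with a median of 0.64. Without C_O72 all 10 were still above 0 with a median of 0.40, and 2 had p under 0.05 (as did 2.44% of all tested genes). The DEG calls of Col1a2, Aldh1a2, Slc6a13 and Igf2 were lost without C_O72, and those of Col1a1 and Col3a1 were not. Col1a1, a chain of type I collagen, was at 0.607, 1.22 and 0.738 FPKM in C_W and 1.49, 2.2 and 1.81 in C_O, a difference of 0.62 (interval 0.23 to 1.01, p of 0.0054) and of 0.62 without C_O72. Col1a2 was at 0.838, 0.634 and 0.936 in C_W and 1.09, 1.63 and 3.25 in C_O, and Col3a1, of type III collagen, at 0.119, 0.258 and 0.181 in C_W and 0.342, 0.509 and 0.687 in C_O. Aldh1a2, which makes retinoic acid in meninges, was at 1.93, 2.07 and 1.67 in C_W and 2.28, 5.58 and 12 in C_O, and Slc6a13, a GABA transporter of meninges, at 2.28, 1.54 and 1.92 in C_W and 2.5, 4.93 and 8.04 in C_O. In Igf2 the C_O15 value lay below that of C_W1. In the other 5 every C_O mouse was above every C_W mouse, as in 4.08% of all tested genes. Such separation was common among DEGs, with no overlap in 266 of the 377. The list score was 0.21, 0.70 and 1.37 in C_O15, C_O30 and C_O72 relative to the C_W mean, with C_W mice from -0.11 to 0.11. Ptgds and Slc6a20a, also made by meningeal cells, were high in the same 2 mice, C_O30 and C_O72, and the part of meningeal tissue in their differences was not tested.

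The MS_W and MS_O mice gave an independent reading of krill oil against water, in stressed animals. Of the 377 DEGs, 142 (37.7%) had a difference of the same sign under CUMS, against 38.2% of all tested genes, and 9 had p under 0.05 there with the same sign and 44 with the opposite one (6.09% of all tested genes had p under 0.05 in that comparison). Of the 67 stable DEGs, 24 had the same sign, 0 of them at p under 0.05, and 12 had p under 0.05 with the opposite sign. Across all tested genes Pearson's r of both differences was -0.438, and -0.144 when C_O72 and MS_W95, which resemble each other, were left out; genes share libraries and are not independent. Within these 10 libraries, 41.1% of 350 DEGs had the same sign, beside 45.1% of all genes.

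Ak4 had the opposite direction under CUMS. It was at 1.53, 6.68 and 10.2 FPKM in MS_W and 1.57, 0.649 and 0.835 in MS_O, a difference of -1.60 under CUMS (limma p of 0.00393), beside 2.12 without stress. The interaction, the difference under CUMS minus that without, was -3.72 (adjusted p = 0.248, limma). MS_W31 was within the range of the MS_O mice for Ak4, and the other pair of MS_W mice approached the C_O mice. Shank2 was at 5.25, 10.6 and 11.2 in MS_W and 12.5, 13.2 and 13.8 in MS_O, higher with krill oil, a difference of 0.56 (limma p of 0.0367). Nek7 was at 4.53, 4.89 and 5.63 in MS_W and 0.913, 5.06 and 5.37 in MS_O, so that 1 of the 3 MS_O mice, MS_O13, was at the low level of the C_O mice. Hrh1 was at 0.107, 0.0662 and 0.0639 in MS_W and 0.0636, 1.28 and 0.0397 in MS_O, with MS_O46 alone in the range of the C_O mice. Gsk3b was at 9.11, 4 and 3.35 in MS_W and 2.96, 2.93 and 8.79 in MS_O, and 1 mouse of each stressed group was near the C_O level. No gene had an adjusted interaction p under 0.05 in limma, where the smallest was 0.106; an unadjusted interaction p under 0.05 was found for 1546 genes (7.23%).

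**Figure D5:**
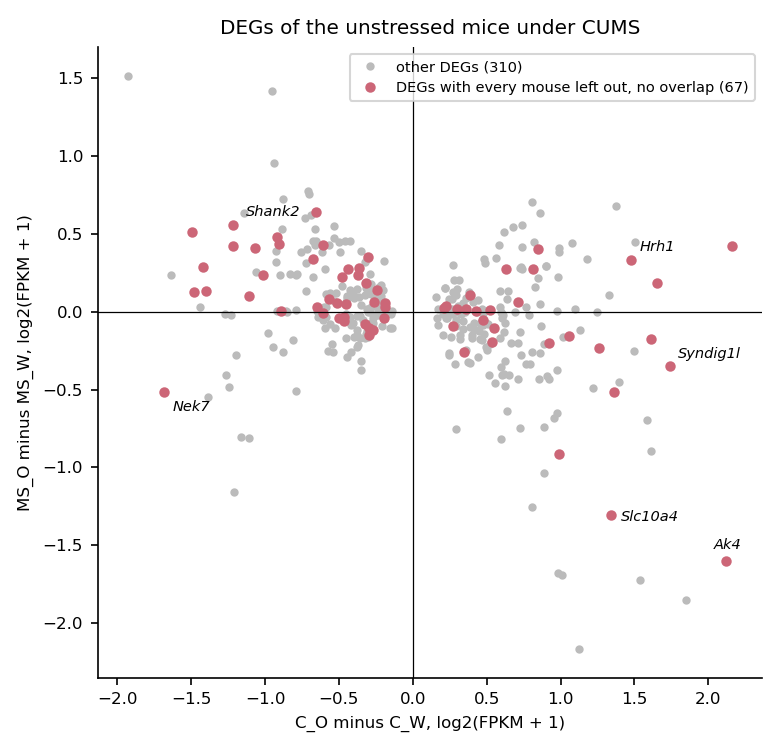
Difference of krill oil and water on the log2(FPKM + 1) scale without stress (horizontal) and under CUMS (vertical) for the 377 DEGs of the unstressed mice, with the 67 that held with every mouse left out and did not overlap in red. The DEG criteria leave no point at 0 on the horizontal axis, and Ak4, at 2.12 and -1.60, lies where the signs are opposite.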

How the data were processed

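FPKM values of genes were made by the authors: reads of whole-brain poly(A) libraries, prepared to keep the strand, were trimmed with cutadapt 1.9 and quality filtered, aligned to mm10 with HISAT2 2.0.4, and assembled and quantified per gene with StringTie 1.3.4d and Ballgown, as the methods of the study and the submitters' processing notes give it. The deposited table also holds estimated counts, which the authors derived from coverage. These sum to more than the reads of each library, so they are not counts of single reads, and depth can be compared only loosely. They were rounded and used for edgeR and DESeq2 as alternatives, and the FPKM columns for all other results.

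The 6 mice of C_W and C_O were taken from the labels. Genes with an average of at least 0.1 FPKM across the 12 libraries were tested on log2(FPKM + 1), with a pseudocount of 1, in 1 limma fit (version 3.58.1, R 4.3.3, lmFit and eBayes with a mean-variance trend) of the 4 groups with Benjamini-Hochberg adjustment, and C_O minus C_W was the contrast. This limma model was tested on simulated data with known changes. Alternatives were other pseudocounts (0.1 and 0.01), other filters, median centring, quantile normalization, a fit of the 6 libraries, robust variances, library weights, 10 libraries, edgeR 4.0.16, DESeq2 1.42.0, another fold criterion and each mouse left out. Groups of 3 against 3 allow no exact permutation p below 0.10, so none is given. Named genes were stable DEGs (up to 12 in each direction), list genes with p under 0.05 and the 3 most abundant genes of each list, genes that passed adjustment with a mouse left out, genes the study had named, and DEGs lost without 1 C_O mouse. The comparison, its 36 gene lists and these rules were chosen with earlier results of these data known. Of 544 list genes 513 were tested. Some named genes are not reported here. Exon overlaps come from the GENCODE M21 annotation.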

Additional observations from a re-analysis of the deposited data

Results flagged for a closer look

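In 7 of the named genes every MS_O mouse differed from every MS_W mouse in the direction opposite to that between the C_O and C_W mice. The share of all tested genes with such a reversal was not counted, and many named genes were chosen by their C_O and C_W values. Opposite signs were common: 38.2% of all tested genes had the same sign in both comparisons, and Pearson's r of both differences was -0.438. The size of the interaction (krill oil minus water under CUMS, minus the same without stress, log2 scale) and its limma test are given for each, and none passed adjustment over all tested genes. Cholinergic and related neuronal genes were 3 of them. Slc10a4 had an interaction of -2.643 (adjusted p = 0.455, limma), with 4.5, 5.7 and 4.44 FPKM in MS_W and 1.84, 1 and 1.34 in MS_O. Chat had -1.907 (adjusted p = 0.502, limma), with 2.1, 2.75 and 1.53 in MS_W and 0.763, 0.432 and 0.731 in MS_O. Ecel1 had -3.262 (adjusted p = 0.468, limma), with 12.9, 15.8 and 4.77 in MS_W and 2.64, 1.95 and 2.47 in MS_O. In these 3 the MS_W mice were the highest or among the highest of all 12, and the C_W mice the lowest.

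Col1a1 and Col3a1, collagens of meninges, had interactions of -1.019 and -0.6037 (adjusted p = 0.507 and adjusted p = 0.525, limma). Col1a1 was at 2.21, 2.36 and 2.55 in MS_W and 1, 1.82 and 1.94 in MS_O. Shank2 had an interaction of 1.775 (adjusted p = 0.345, limma) and Npnt one of 1.639 (adjusted p = 0.402, limma). Npnt was at 2.29, 2.74 and 2.09 in MS_W and 5.28, 2.87 and 2.75 in MS_O, below the C_W mice in all 6. The median difference of MS_O and MS_W was -0.06 for the 12 striatal and -0.19 for the 10 meningeal markers, beside 0.91 and 0.64 without stress, and their part in the 7 differences was not tested. Groups of 3 are too small to look for outlying mice by a gap rule.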

How the results depend on the processing

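The count of DEGs was 892 (407 higher, 485 lower) with no filter on low FPKM, 122 (79 and 43) with a mean FPKM of at least 1, 510 (388 and 122) with edgeR, 599 (453 and 146) with DESeq2, and 54 (28 and 26) when the fold criterion was set on the log2(FPKM + 1) difference in place of the ratio of means. With a mouse left out it ranged from 251 to 888, from 113 to 500 for higher and from 138 to 388 for lower DEGs, with both ends set by C_O72 and C_O15. Under the other settings it was between 350 and 412, and median centring gave 229 higher and 136 lower. The cause of the wider spread was not tested beyond these settings, and the filters change how many genes are tested. Adjusted p under 0.05 was reached by 54 genes with DESeq2, by 1 (Eif4h) in 10 libraries without C_O72 and MS_W95, and by 1 to 4 with a mouse left out; it was reached by 0 in the rest, edgeR included, where 956 genes had an unadjusted p under 0.05. For the interaction these counts were 151 with DESeq2, 31 in 10 libraries, 32 with library weights and 0 to 20 with a mouse left out, and 0 otherwise. Of 788 values of 44 named DEGs, 715 kept the direction and the call, 73 kept the direction and lost the call, and 0 changed direction. These values include the fits with a mouse left out. The 20 stable DEGs named above were chosen for keeping their call in those fits, so that part was fixed by the choice. Of 432 list medians 47 moved by over 1 SD. With 3 mice a group and 1 that stood apart, the median half-width of the 95% interval was 0.388 on the log2 scale for genes that averaged 1 FPKM or more, which limits how small a difference could be seen. No paired analysis was possible because the groups share no replicate numbers.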

Other observations

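Some genes were set apart by C_O15 and C_O30 and not by C_O72, and were chosen after their values were seen. Stx17, the syntaxin that fuses autophagosomes with lysosomes, was at 3.79, 4.6 and 4.41 FPKM in C_W and 1.72, 1.15 and 4.26 in C_O, Brms1, a subunit of a histone deacetylase complex, at 3.37, 2.51 and 3.68 in C_W and 0.788, 1.05 and 3.88 in C_O, and Alkbh8, a tRNA methyltransferase, at 2.31, 2.28 and 2.87 in C_W and 0.782, 0.657 and 1.93 in C_O. In each, C_O72 was near or within the C_W range and C_O15 and C_O30 were over 2-fold below the lowest C_W mouse. Timm22, of the mitochondrial inner membrane translocase, was at 2.28, 2.85 and 2.55 in C_W and 6.87, 6.89 and 3.6 in C_O, with C_O15 and C_O30 over 2-fold above the highest C_W mouse.

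Among the 74 DEGs that held with every mouse left out, 7 had all 3 C_O mice beyond the other 9 mice of the series, stressed ones included. The share of all tested genes with this trait is not given, and stable DEGs mostly had separate C_O and C_W mice already. The 7 genes are therefore only described. Chosen after their values were seen, these were Npcd, Prickle4, Gm48684, Gm23264, Gm16794, Gm45094 and Rps12-ps19. Npcd, a neuronal pentraxin with chromo domain that shares exon bases with Cbx6 and Nptxr, was at 1.73, 0.658 and 2.34 in C_W and 0.0001, 0.0001 and 0.638 in C_O, and Prickle4, a planar polarity gene that shares exon bases with Gm21981, at 0.0793, 0.0001 and 0.0769 in C_W and 0.304, 0.16 and 0.192 in C_O.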
